A study of Mus musculus with 12 samples.

Results

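The ER-associated degradation (ERAD) machinery was represented by 10 genes, namely *Sel1l*, *Syvn1*, *Derl1*, *Derl2*, *Derl3*, *Edem1*, *Edem2*, *Edem3*, *Herpud1* and *Os9*. They were chosen by name from the 55536 genes in the deposited count and FPKM tables, where each had 1 row. RNA was sequenced from thyroids of 12 mice, with 1 library per mouse. The 5 affected mice had the thyroid dysplasia phenotype and were B6NTac mice from Taconic, the substrain in which a LINE-1 element inserted into the thyroglobulin gene (*Tg*) was found. The 7 unaffected mice had a normal phenotype. Of these, 6 were B6NCrl mice from Charles River, and 1 (replicate 14) was a knockout animal from Taconic, whose targeted gene is not given in the sources used here. The labels give no age, sex or genotype at the insertion, so the phenotype and the vendor's substrain cannot be told apart in this comparison. Nothing says how the thyroids were dissected, and the p-values measure the spread between these mice.

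ERAD removes proteins that fail to fold in the endoplasmic reticulum (ER). Lectins and mannosidases in the lumen select glycoproteins by their trimmed sugars, a membrane complex of an adaptor, a ubiquitin ligase and derlins moves them out and tags them, and an ATPase pulls them into the cytosol for the proteasome. In the thyroid, follicular cells fold very large amounts of the glycoprotein thyroglobulin in the ER, and several ERAD genes are known targets of the unfolded protein response, the transcriptional program that follows a load of unfolded protein.

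Total counts were between 20170500 and 23319948 in affected mice and between 11434901 (replicate 14) and 22401136 in unaffected mice. Thyroid follicular cell markers were present in all 12 libraries, with a summed level of 956 to 2000 CPM (counts scaled to library size, with TMM factors) over 11 genes in affected mice and 1370 to 2175 CPM in unaffected mice, and the lowest sums were in affected 1 (956 CPM) and affected 6 (989 CPM). Of this list, 1 gene was called higher and 1 lower, and *Slc26a4* was at 0 in 2 mice. Other tissue was present unevenly. Summed T cell markers (7 genes) reached 287 CPM in each of unaffected 14 and 21, against 4.03 to 5.07 CPM in the other 5 unaffected mice and 2.75 to 49.1 CPM in affected mice. Skeletal muscle markers reached 26731 CPM in affected 6, plasma cell markers reached 311 CPM in affected 1, and parathyroid markers were at 119 CPM in affected 4, against 1875 to 4352 CPM in the other 11 mice. Summed macrophage markers (6 genes, of which 4 were called higher) ranged from 128 to 198 CPM in affected mice and from 60.5 to 143 CPM in unaffected mice.

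The first question was whether the machinery as a whole differed between affected and unaffected thyroids. Of the 10 genes, 9 rose in affected mice and none fell (edgeR's quasi-likelihood test, adjusted p under 0.05 by Benjamini-Hochberg over the 19661 genes tested), where 7.63% of all genes tested were called higher. The gene that did not pass was *Edem3*. The 10 genes were chosen with earlier results of these data known, so their count beside that share is a description only. All 10 passed the filter on low counts. The median log2 fold change of the 10 was 0.85, beside 0.01 over all genes tested, and single genes spanned 0.35 to 4.36. For 6 genes (*Sel1l*, *Derl1*, *Derl2*, *Derl3*, *Herpud1* and *Os9*) the lowest affected mouse was above the highest unaffected mouse in CPM, as was the case for 3.78% of all genes tested. On FPKM, which carries no TMM scaling, 4 of these kept separate groups and *Derl2* and *Os9* overlapped. In whole tissue, more cells of a type and more RNA per cell cannot be told apart.

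The number of calls depended on the setting. With library totals taken without *Tg* and without TMM factors, 5 of the 10 were called (*Sel1l*, *Syvn1*, *Derl1*, *Derl3* and *Herpud1*). There, 608 of the 19661 genes tested were called higher, against 1500 in the reported fit. This scaling moved the median of all genes to -0.13 on the log2 scale. With the mean of the macrophage markers as a covariate, which was tried after the data were seen, 6 were called and *Syvn1*, *Derl2*, *Edem1* and *Os9* were not. With this covariate 711 of the 19661 genes tested were called higher. In that fit the log2 fold changes of *Syvn1* (1.65 ± 0.47, SE), *Os9* (0.80 ± 0.24) and *Derl2* (0.57 ± 0.18) were close to or above those reported here with larger SEs, and that of *Edem1* was smaller (0.42 ± 0.40). Without both mice that had high T cell markers, the count was 9, beside 1081 of 19261 genes tested called higher.

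**Figure D1:**
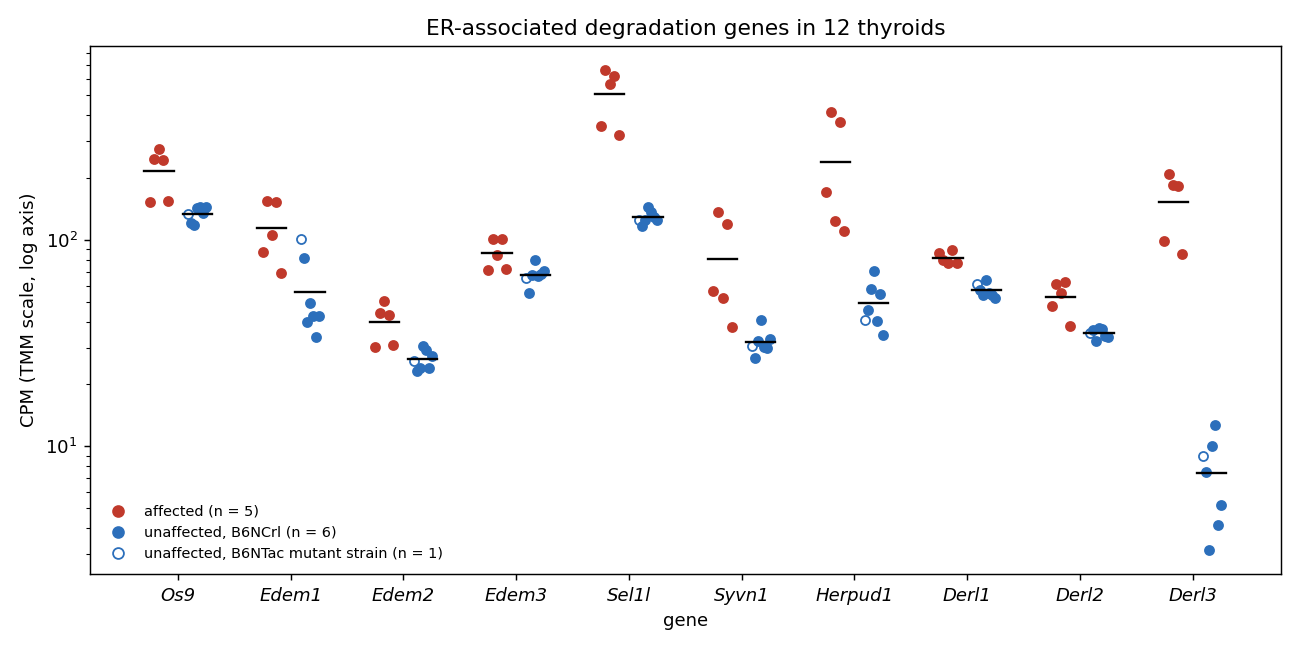
CPM of the 10 ERAD genes in each mouse on a log axis, with affected mice in red (n = 5), unaffected B6NCrl mice in blue (n = 6), the unaffected Taconic mouse as an open circle (n = 1) and the group mean as a black bar. The red and blue points of *Sel1l*, *Herpud1*, *Derl1*, *Derl2*, *Derl3* and *Os9* do not overlap, and the widest separation is that of *Derl3* (152 against 7.39 CPM).

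The promoters of 9 of the 10 genes were matched in RefSeq (GRCm38.p6) and searched for the letters of elements known to respond to unfolded protein. The ER stress response element (ERSE, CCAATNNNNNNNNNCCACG) was found in the 250 bases before the start of *Derl3* and *Syvn1*, and in 0.130% of the 27025 genes with such a promoter window. The second form (ERSE-II, ATTGGNCCACG) was found in *Herpud1* and in 0.0370% of all these genes. The unfolded protein response element (UPRE, TGACGTGG) was found in 0 of the 9 and in 0.603% of all these genes. Both strands were searched. Every ERSE and ERSE-II holds shorter stretches that are common on their own. The stretch CCACG was in 8 of the 9 genes and in 31.0% of all these genes. The CCAAT box was in 8 of the 9 genes and in 37.5% of all these genes. The windows of *Derl3*, *Syvn1* and *Herpud1* are printed because they hold a long element. That of *Sel1l* holds none and is printed because its lowest affected mouse lay far above the unaffected mice. Each window is the 250 bases before the start, 5′ to 3′ on the strand of the gene. In *Derl3* (chr10:75893148-75893397, plus strand) capitals mark the fixed letters of the ERSE, which lies on the opposite strand from 156 to 138 bases before the start. In *Syvn1* (chr19:6046326-6046575, plus strand) they mark the ERSE from 44 to 26 bases before the start. In *Herpud1* (chr8:94386179-94386428, plus strand) they mark the ERSE-II from 52 to 42 bases before the start. In *Sel1l* (chr12:91849158-91849407, minus strand) they mark the 2 short stretches in either orientation.
*Derl3*: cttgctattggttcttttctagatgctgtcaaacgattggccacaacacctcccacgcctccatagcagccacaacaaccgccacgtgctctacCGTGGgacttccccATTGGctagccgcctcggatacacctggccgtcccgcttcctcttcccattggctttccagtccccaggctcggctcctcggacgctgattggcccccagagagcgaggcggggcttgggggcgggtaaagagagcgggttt
*Syvn1*: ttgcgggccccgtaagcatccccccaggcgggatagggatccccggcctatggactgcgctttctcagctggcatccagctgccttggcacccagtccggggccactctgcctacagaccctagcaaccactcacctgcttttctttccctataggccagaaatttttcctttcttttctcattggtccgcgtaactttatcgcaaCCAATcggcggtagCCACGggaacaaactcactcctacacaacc
*Herpud1*: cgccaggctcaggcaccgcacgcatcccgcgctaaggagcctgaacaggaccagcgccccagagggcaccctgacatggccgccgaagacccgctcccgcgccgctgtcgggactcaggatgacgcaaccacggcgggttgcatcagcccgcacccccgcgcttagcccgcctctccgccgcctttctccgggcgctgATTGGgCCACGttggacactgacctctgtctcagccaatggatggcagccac
*Sel1l*: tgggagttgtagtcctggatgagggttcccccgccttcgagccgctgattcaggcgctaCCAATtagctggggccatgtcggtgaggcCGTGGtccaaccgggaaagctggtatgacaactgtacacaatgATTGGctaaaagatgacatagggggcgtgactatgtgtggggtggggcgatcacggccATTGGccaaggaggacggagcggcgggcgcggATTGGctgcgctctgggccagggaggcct
These are letter matches in 1 window, and binding of a factor was not measured.

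In the lumen, *Os9* encodes a lectin that hands glycoproteins with trimmed sugars to the membrane complex. Its level was 152, 246, 275, 244 and 153 CPM in affected 1, 3, 4, 5 and 6, and the unaffected mice had a lowest, median and highest level of 118, 134 and 145 CPM. The groups did not overlap in CPM, although affected 1 and 6 lay just above the highest unaffected mouse. *Os9* rose by 0.68 ± 0.15 on the log2 scale (SE, edgeR adjusted p = 0.00953), which is 1.60-fold. Its relative *Erlec1*, which also binds trimmed sugars, differed by 0.26 ± 0.12 (edgeR adjusted p = 0.167) and was not called.

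The *Edem* genes encode mannosidase-like proteins that trim sugars on misfolded glycoproteins and mark them for disposal. *Edem1* was at 87.2, 154, 105, 152 and 68.6 CPM in affected 1, 3, 4, 5 and 6, and at 33.9 (lowest), 42.7 (median) and 101 CPM (highest) in unaffected mice. The groups overlapped through unaffected 14 (101 CPM) and unaffected 21 (81.5 CPM), the same 2 mice in which T cell markers summed to 287 CPM, while the other 5 unaffected mice were at or below 49.3 CPM. Macrophage markers (108 and 143 CPM) and plasma cell markers (39.4 and 82.8 CPM) were also highest among unaffected mice in 14 and 21. Unaffected 14 was the Taconic knockout. The source of the high *Edem1* in these mice was not tested. *Edem1* was called higher by 1.02 ± 0.30 (SE, log2, edgeR adjusted p = 0.0437). Without unaffected 14 and 21 the difference was 1.45 ± 0.22 (edgeR adjusted p = 0.00382), and with the mean of the T cell markers as a covariate it was 1.19 ± 0.21 (edgeR adjusted p = 0.00403). Both fits were added after the data were seen. Leaving out the unaffected mice with the highest *Edem1* had to raise the difference, and the T cell markers set the same mice apart. Neither fit therefore bears on the call. The call of *Edem1* was lost in 18 of 29 other settings. These included library totals without TMM factors (adjusted p = 0.0734), no filter on low counts (adjusted p = 0.0961), *Xist* as a covariate (adjusted p = 0.0718) and the 3 fits on FPKM (adjusted p from 0.0750 to 0.156). The call was also lost when affected 1, 3 or 5 or any of unaffected 22 to 26 was left out (adjusted p from 0.0525 to 0.111), and with the macrophage markers as a covariate the difference was 0.42 ± 0.40 (adjusted p = 0.559).

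**Figure D2:**
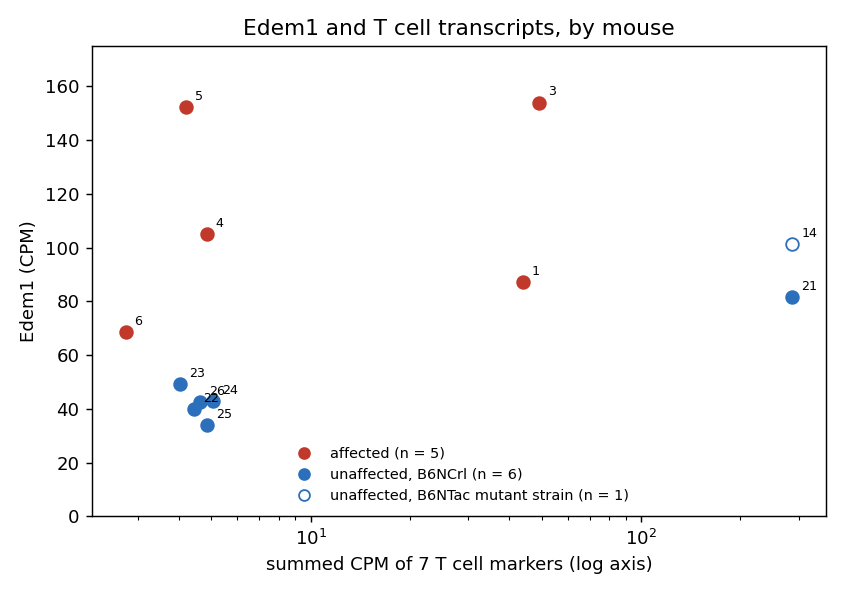
*Edem1* (CPM) against the summed CPM of 7 T cell markers on a log axis, 1 point per mouse labelled by replicate number, with affected mice in red and unaffected mice in blue (open circle, the Taconic mouse). Unaffected 14 and 21 stand apart at 287 CPM of T cell markers with 101 and 81.5 CPM of *Edem1*, and the other 5 unaffected mice lie at 33.9 to 49.3 CPM. Macrophage and plasma cell markers were also highest among unaffected mice in 14 and 21.

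*Edem2* was at 30.2, 44.4, 50.7, 43.2 and 30.9 CPM in affected 1, 3, 4, 5 and 6 and at 23.2, 25.8 and 30.7 CPM (lowest, median, highest) in unaffected mice. Affected 1 lay below the highest unaffected mouse and affected 6 only just above it. *Edem2* rose by 0.60 ± 0.13 on the log2 scale (SE, edgeR adjusted p = 0.0106), a 1.51-fold difference. *Edem3* was at 71.0, 100.45, 83.9, 101 and 72.1 CPM in affected 1, 3, 4, 5 and 6 and at 55.0, 67.1 and 79.4 CPM in unaffected mice, so that affected 1 and 6 lay within the unaffected range. Its difference of 0.35 ± 0.11 (SE, log2) had an edgeR adjusted p of 0.0548. It missed the threshold in 20 of 29 other settings, with an adjusted p of up to 0.292 (library totals without *Tg*). It passed in the other 9, among them without affected 1 (adjusted p = 0.0307), without affected 6 (adjusted p = 0.0299) or without unaffected 23 (adjusted p = 0.0290), and with DESeq2 (adjusted p = 0.0231).

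In the membrane, *Sel1l* encodes the adaptor that holds the ligase complex together. *Sel1l* was at 356, 663, 567, 621 and 320.4 CPM in affected 1, 3, 4, 5 and 6, and the unaffected mice spanned only 116 to 143 CPM with a median of 124 CPM. The lowest affected mouse was 2.23-fold above the highest unaffected mouse. *Sel1l* rose by 1.98 ± 0.17 on the log2 scale (SE, edgeR adjusted p = 5.4e-05), which is 3.94-fold, and 110 of the 19661 genes tested had a larger log2 fold change. Leaving out any 1 mouse gave between 1.86 and 2.11.

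*Syvn1* encodes the ubiquitin ligase that works with SEL1L. It was at 56.6, 136, 52.3, 119.7 and 37.8 CPM in affected 1, 3, 4, 5 and 6 and at 26.7, 30.5 and 40.7 CPM (lowest, median, highest) in unaffected mice. Affected 6 lay below the highest unaffected mouse, and affected 3 and 5 lay far above the other affected mice. *Syvn1* rose by 1.33 ± 0.28 on the log2 scale (SE, edgeR adjusted p = 0.00961), a 2.52-fold difference. Its exons overlap those of *Mrpl49* on the opposite strand, and whether counting used the strand is not stated.

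*Herpud1* encodes a membrane protein with a ubiquitin-like domain that binds the ligase complex. It was at 169, 416, 123, 370.0 and 111 CPM in affected 1, 3, 4, 5 and 6 and at 34.6, 45.5 and 70.3 CPM (lowest, median, highest) in unaffected mice. As with *Syvn1*, affected 3 and 5 were the highest mice, but for *Herpud1* the groups did not overlap. *Herpud1* rose by 2.27 ± 0.34 on the log2 scale (SE, edgeR adjusted p = 0.001485), a 4.83-fold difference. The gene lies over *Gm15890*, which is annotated as antisense, with no shared exon. Its paralog *Herpud2* differed by 0.13 ± 0.07 (edgeR adjusted p = 0.236) and was not called.

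The derlins are membrane proteins that help misfolded proteins leave the ER, and the 3 genes moved by very different amounts. *Derl3* was at 98.2, 207, 184, 182 and 85.5 CPM in affected 1, 3, 4, 5 and 6 and at 3.14, 7.52 and 12.7 CPM (lowest, median, highest) in unaffected mice. The lowest affected mouse was thus 6.71-fold above the highest unaffected mouse. *Derl3* rose by 4.36 ± 0.37 on the log2 scale (SE, edgeR adjusted p = 6.7e-05), a 20.5-fold difference, and 9 genes of the 19661 tested had a larger log2 fold change. *Derl3* is known to be abundant in cells that secrete much protein, including plasma cells. Plasma cell markers (7 genes) summed to 311 CPM in affected 1 and to 13.1 to 18.2 CPM in the other 4 affected mice, and to 11.1 to 82.8 CPM in unaffected mice. With the plasma cell markers as a covariate the difference was 4.35 ± 0.39 (adjusted p = 0.000116). The part of plasma cells in the level of *Derl3* was not tested.

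*Derl1* varied little between the affected mice. It was at 85.9, 79.6, 77.0, 88.8 and 77.3 CPM in affected 1, 3, 4, 5 and 6 and at 52.4, 55.4 and 63.8 CPM (lowest, median, highest) in unaffected mice, with no overlap, and it rose by 0.52 ± 0.06 on the log2 scale (SE, edgeR adjusted p = 0.00035). *Derl2* was at 47.7, 61.3, 55.3, 62.2 and 38.2 CPM in affected mice and at 32.4, 35.2 and 37.3 CPM in unaffected mice. Affected 6 was barely above the highest unaffected mouse. *Derl2* rose by 0.59 ± 0.11 (SE, log2, edgeR adjusted p = 0.00339), and its exons overlap those of *Mis12* on the opposite strand.

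**Figure D3:**
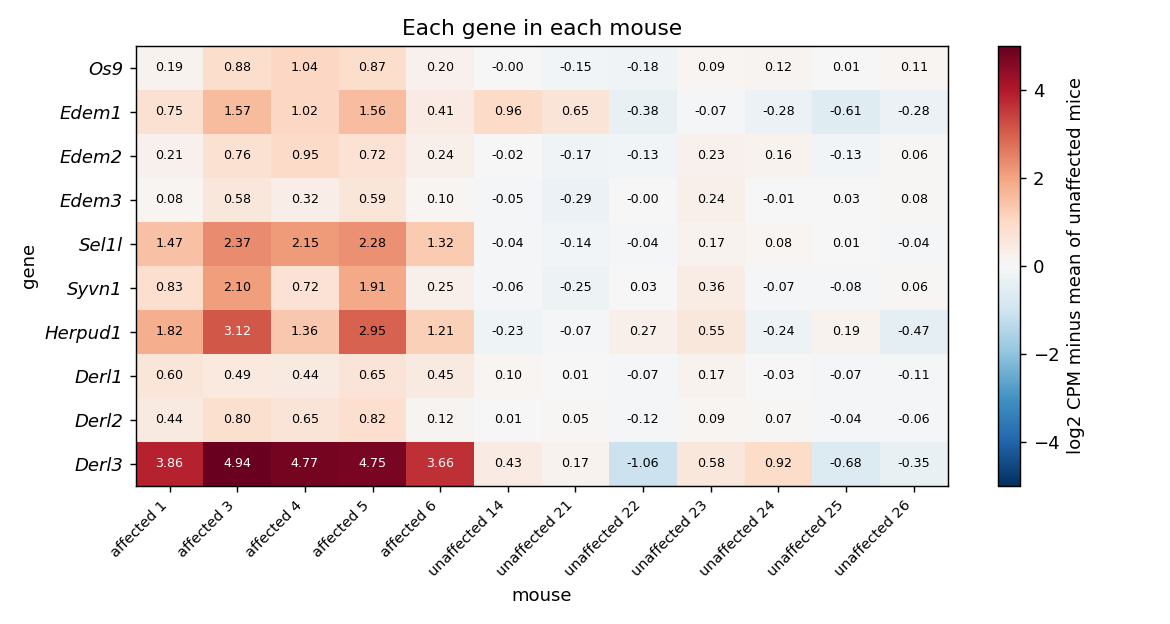
Log2 CPM of each ERAD gene in each mouse minus the mean of the 7 unaffected mice (colour and printed value). Affected 3 and 5 carry the largest values for *Syvn1*, *Herpud1* and *Edem1*, affected 1 and 6 carry the lowest values of the affected mice for *Sel1l*, *Derl3*, *Os9*, *Edem2* and *Edem3*, and unaffected 14 and 21 carry the highest unaffected values of *Edem1*.

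The affected mice were not alike. The mean difference of the 10 genes from the unaffected mean was 1.76 in affected 3, 1.71 in affected 5, 1.34 in affected 4, 1.03 in affected 1 and 0.80 in affected 6 on the log2 scale, whereas unaffected mice ranged from -0.17 to 0.24. *Derl3* weighs heavily in these means. The medians over the 10 genes were 1.23, 1.21, 0.99, 0.68 and 0.33 in the same order, and affected 6 was then close to unaffected 23 (0.20). The unaffected Taconic mouse had a mean of 0.11, within the range of the 6 B6NCrl mice. *Sel1l*, *Os9*, *Edem2* and *Derl3* were high in affected 3, 4 and 5 and lower in affected 1 and 6, and the same 2 mice had the lowest sums of follicular cell markers. *Herpud1* and *Syvn1* split differently, with affected 3 and 5 apart from affected 4, in which *Herpud1* (123 CPM) was close to affected 6 (111 CPM). With the mean of the follicular cell markers as a covariate, 9 of the 10 were called, *Edem3* among them (adjusted p = 0.00664) and *Edem1* not (adjusted p = 0.0609). In that fit 2065 of 19661 genes tested were called higher.

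Whether partners and paralogs changed by the same amount was tested on the ratio of 2 genes within each mouse, which does not depend on the scaling between libraries. Of 9 pairs, 6 differed between the groups (exact two-sided permutation test, adjusted over the 9 pairs, where the smallest p the design allows is 0.00126). The log2 ratio of *Sel1l* to its ligase *Syvn1* was 2.76 ± 0.48 (SD, n = 5) in affected and 1.99 ± 0.12 (SD, n = 7) in unaffected mice, a difference of 0.76 (exact permutation test, p = 0.00126, adjusted p = 0.00227). Affected mice spanned 2.28 to 3.42, and the highest unaffected mouse was close below at 2.14. The overlap of *Syvn1* with *Mrpl49* applies to this ratio too. *Os9* rose more than *Erlec1*, with a difference in log2 ratio of 0.41, and *Herpud1* more than *Herpud2*, with a difference of 1.95, both at the same adjusted p. *Derl3* rose more than *Derl1* by 3.79 and more than *Derl2* by 3.74, again at the smallest p possible. In unaffected mice *Derl3* had fewer counts than *Derl1* in every mouse, with a log2 ratio of -3.91 to -2.08, and in affected mice it had more in every mouse, with 0.14 to 1.37.

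The ratio of *Derl2* to *Derl1* differed by 0.04 (exact permutation test, p = 0.701), so that unequal change of this pair was not detectable. Among the *Edem* genes, the ratio of *Edem2* to *Edem3* differed by 0.23 (exact permutation test, p = 0.0126, adjusted p = 0.0189), a call that was lost without affected 4 (difference 0.14, adjusted p = 0.0896). *Edem1* to *Edem3* differed by 0.72 (exact permutation test, p = 0.0593, adjusted p = 0.0763) and *Edem1* to *Edem2* by 0.49 (exact permutation test, p = 0.140, adjusted p = 0.158), and neither passed. Unaffected 14 and 21 had the highest *Edem1* ratios of the unaffected mice, and without unaffected 14 the ratio of *Edem1* to *Edem3* passed (difference 0.89, adjusted p = 0.0292), as it did without unaffected 21 (difference 0.88, adjusted p = 0.0306).

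**Figure D4:**
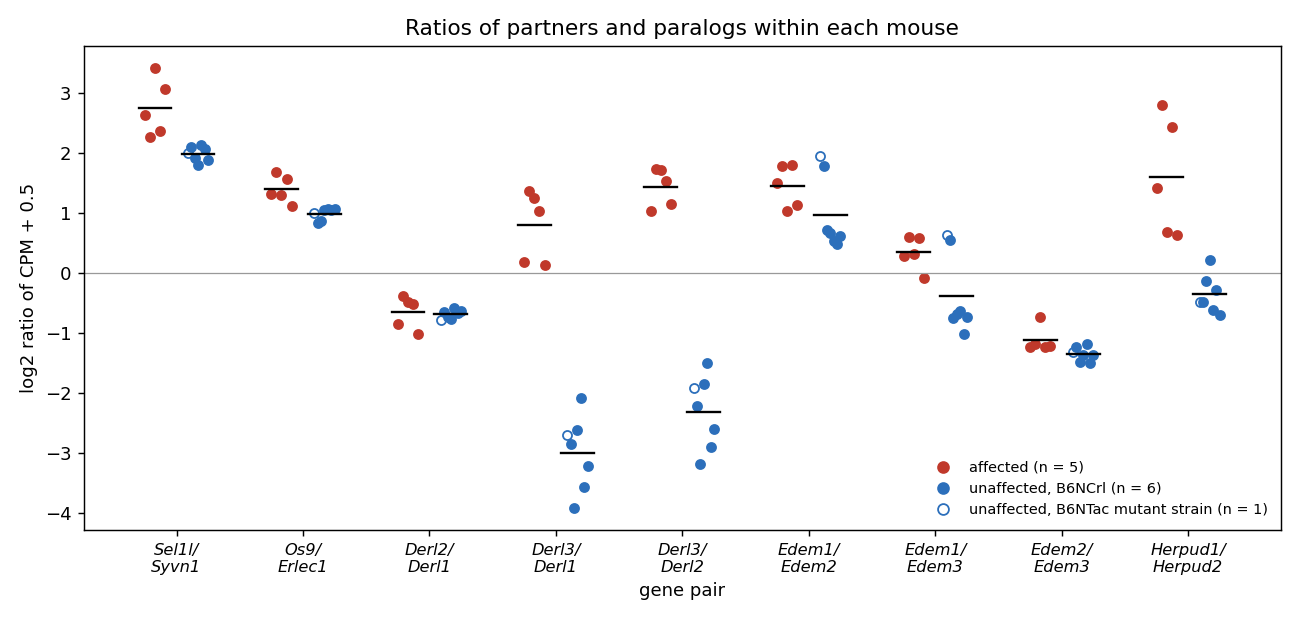
Log2 ratio of CPM + 0.5 for 9 pairs of partners or paralogs in each mouse, with affected mice in red (n = 5), unaffected mice in blue (n = 7, open circle for the Taconic mouse) and group means as bars. The groups are separate for *Sel1l* to *Syvn1*, *Os9* to *Erlec1*, *Derl3* to *Derl1*, *Derl3* to *Derl2* and *Herpud1* to *Herpud2*, and they overlap for the other 4 pairs.

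Levels between genes were compared on FPKM, which is per transcript length. In unaffected mice the order of mean levels was *Os9* (52.2 ± 4.29 FPKM, SD, n = 7), *Herpud1* (27.3 ± 6.30), *Sel1l* (26.1 ± 1.76), *Derl1* (18.0 ± 1.57), *Edem2* (12.8 ± 1.31), *Edem1* (11.6 ± 6.33), *Edem3* (11.3 ± 1.14), *Derl2* (10.05 ± 0.978), *Syvn1* (9.11 ± 1.06) and *Derl3* (6.30 ± 2.68). The neighbours *Herpud1* and *Sel1l*, *Edem2* and *Edem1*, *Edem1* and *Edem3*, and *Derl2* and *Syvn1* did not differ beyond the larger of their SDs. In affected mice *Herpud1* (131 ± 81.2 FPKM, SD, n = 5), *Derl3* (128 ± 50.9), *Sel1l* (106 ± 37.6) and *Os9* (83.4 ± 22.3) came first, and neighbours among these 4 did not differ beyond their SDs. They were followed by *Derl1* (25.7 ± 3.24), *Edem1* (23.2 ± 8.96), *Syvn1* (23.1 ± 13.3), *Edem2* (19.5 ± 4.22), *Derl2* (16.2 ± 3.77) and *Edem3* (14.3 ± 2.89), where no neighbours differed beyond their SDs. *Derl3* was thus last of the 10 in unaffected mice and shared the top in affected mice.

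Around the core, 59 other ERAD genes were listed by role and 58 passed the filter on low counts (all but *Sel1l2*). Of the 58, 18 rose, 0 fell and 40 did not pass the test, beside the 7.63% of all genes called higher. An unadjusted p under 0.05 was found for 24 of the 58 and for 5711 of the 19661 genes tested. Their median log2 fold change was 0.16, against 0.85 for the core genes. With library totals without *Tg* the count was 7, beside 608 of 19661 genes tested called higher. Without the 2 unaffected mice with T cell transcripts the count was 12, beside 1081 of 19261 genes.

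Among 7 genes of recognition and trimming, 3 rose (42.9%, beside 7.63% of all genes tested called higher). *Sdf2l1*, an ER protein that works with chaperones, rose by 3.76 ± 0.40 on the log2 scale (SE, edgeR adjusted p = 0.000219), from 7.55 ± 4.04 CPM (SD, n = 7) to 102 ± 41.1 CPM (SD, n = 5). *Dnajb9*, a cochaperone of BiP, rose by 1.46 ± 0.19 (adjusted p = 0.000584). *Man1b1*, an alpha-mannosidase, rose by 0.31 ± 0.07 (adjusted p = 0.0132).

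Of 22 tested membrane ligases, conjugating enzymes and partners, 6 rose (27.3%, beside 7.63% of all genes tested), all by less than 0.5 on the log2 scale. The largest changes were those of the conjugating enzymes *Ube2g2* (0.48 ± 0.15, edgeR adjusted p = 0.0442) and *Ube2j1* (0.39 ± 0.07, adjusted p = 0.00212) and the ligase *Rnf5* (0.37 ± 0.11, adjusted p = 0.0451). The calls of *Ube2g2* and *Rnf5* were lost under 17 and 19 of 29 other settings.

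Of 16 genes of extraction, 7 rose (43.75%, beside 7.63% of all genes tested called higher). *Vcp*, which encodes the ATPase that pulls proteins from the membrane, rose by 0.59 ± 0.10 on the log2 scale (SE, edgeR adjusted p = 0.00291), from 201 ± 23.1 CPM (SD, n = 7) to 302 ± 41.3 CPM (SD, n = 5). The selenoproteins *Selenos* and *Selenok*, which sit in the ER membrane and bind this ATPase, rose by 0.91 ± 0.10 (adjusted p = 0.000246) and 0.90 ± 0.08 (adjusted p = 6.4e-05), with no overlap between the groups. The rhomboid protease gene *Rhbdd1* rose by 0.64 ± 0.09 (adjusted p = 0.000638). Of 13 genes of delivery to the proteasome, 2 rose (15.4%), too few to set this list apart from all genes tested. They were the shuttle factors *Rad23b* (0.40 ± 0.09, edgeR adjusted p = 0.0109) and *Ubqln1* (0.24 ± 0.05, edgeR adjusted p = 0.00666).

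**Figure D5:**
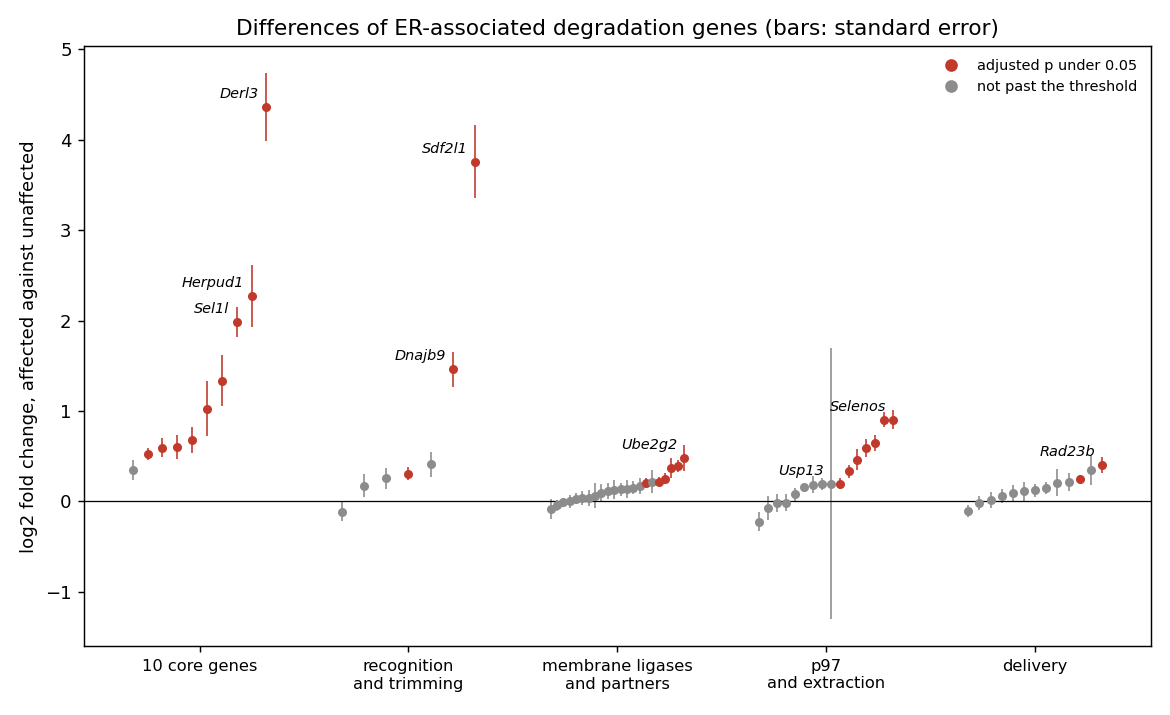
Log2 fold change of affected against unaffected mice, with standard errors as bars, for the 10 core ERAD genes and the 58 other tested ERAD genes by role, red where the edgeR adjusted p is under 0.05. The largest values are those of *Derl3* (4.36), *Sdf2l1* (3.76), *Herpud1* (2.27) and *Sel1l* (1.98), and the genes of membrane ligases and delivery lie below 0.5.

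The genes whose log2 profile over the 12 mice, relative to the unaffected mean, was nearest to that of *Sel1l* were *Pdia3* (Euclidean distance 0.77 on the log2 scale), which encodes a disulfide isomerase for glycoproteins, *Asns* (0.81), which encodes asparagine synthetase, and *Gm7968* (0.81), an unspliced locus still to be experimentally checked that lies over another annotated gene. They were picked for this likeness among 15158 candidates, and their log2 fold changes of 1.85, 1.74 and 2.21 are a description.

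The transcript length implied by the tables, the count divided by FPKM and by the total count, was compared as a readout other than the level. It can shift when the mix of transcripts changes. *Derl3* was left out because it had fewer than 100 counts in a mouse. For 0 of the other 9 genes did the groups separate, beside 1.67% of 9084 genes. The 9084 genes had at least 100 counts in every mouse and multiple annotated transcripts. The largest difference was that of *Derl2* (-6.22%), from 3523 ± 162 bases (SD, n = 7) in unaffected to 3304 ± 256 bases (SD, n = 5) in affected mice. *Os9*, at 2572 ± 6.68 bases (SD, n = 7) in unaffected and 2556 ± 5.93 bases (SD, n = 5) in affected mice, separated when affected 6 or unaffected 23 was left out.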

How the data were processed

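Thyroid RNA was sequenced by the authors from ribosomal RNA-depleted libraries (KAPA RNA HyperPrep with RiboErase). Reads were aligned with the OmicSoft Aligner and quantified in Array Studio. The deposited tables hold estimated counts per gene without normalization, and FPKM. All 55536 gene identifiers and coordinates match GENCODE M21 (GRCm38).

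Estimated counts were rounded, filtered with edgeR's filterByExpr at its defaults (minimum count 10), and given TMM factors. The 5 affected mice were compared with the 7 unaffected mice in edgeR 4.0.16 (R 4.3.3) by its robust quasi-likelihood F test, with no covariate and with Benjamini-Hochberg adjustment over 19661 genes at a threshold of 0.05. The SE was obtained from the log2 fold change and the root of its F statistic. Log2 CPM values have a prior count of 2. Pair ratios used CPM + 0.5 and an exact permutation test over 792 assignments of the mice. The edgeR fit was tested on simulated counts. Depth was 11434901 to 23319948 counts per mouse, and the error given is the spread between mice.

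The 10 genes, the lists of other ERAD genes and the markers were chosen with earlier results of these data known. Named genes were the 10, the most changed called genes of each list (up to 4), *Erlec1*, *Herpud2* and the 3 nearest to *Sel1l*, and markers entered as lists. *Slc26a4* was named after its values were seen. A named gene that is withheld is left out of the text. The lists of C cell, B cell, endothelial, adipose and airway markers (0, 0, 0, 0 and 1 genes called higher, and 1, 0, 1, 0 and 0 called lower) were summed in the same way, as were those of fibroblasts (2 higher), parathyroid, plasma cells, T cells and muscle (0 called in each). Alternatives were DESeq2 1.42.0, other scalings and filters, limma 3.58.1 on log2(FPKM + 1) or log2(FPKM + 0.1), on which fold changes of low genes are understated, *Xist* as a covariate, the 6 B6NCrl mice alone as controls, and leaving out each mouse. Marker covariates, and leaving out 2 mice together, were added after the data were seen.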

Additional observations from a re-analysis of the deposited data

Results flagged for a closer look

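Among the named ERAD genes and the total counts, 52 groups of 5 or 7 mice were examined for 1 mouse far from the rest, and about 1 in 20 such groups would stand out by chance. The total count of unaffected 14 (11434901) was the only one that did, with a gap to the next mouse of 0.608 of the group's range. Its levels of the 10 genes other than *Edem1* lay within the range of the other unaffected mice.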

How the results depend on the processing

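All 10 ERAD genes were higher in affected mice under each of the 29 alternatives. Among these, leaving out unaffected 14 and using only the 6 B6NCrl mice as controls were the same fit, counted under both names. The number called was 9 in the reported fit, 5 with library totals without *Tg*, 8 to 10 when 1 mouse was left out, and 6 to 10 under the others. The other ERAD genes called, 18 in the reported fit, were 7 without *Tg* in the totals and 15 to 18 with 1 mouse left out. Among all genes tested, 1500 were called higher in the reported fit and 608 without *Tg* in the totals. Over all genes, 2699 calls became 1445 with limma on log2(FPKM + 1) without a filter, 1631 with the macrophage covariate, and 1774 (without affected 5) to 3390 with 1 mouse left out. The pairs called, 6 as reported, were 5 to 7 with 1 mouse left out. The genes with separate implied lengths, 0 as reported, were 0 to 1. The difference of *Herpud2*, 0.13, was -0.0042 without *Tg* in the totals (adjusted p = 0.981), and the ratio of *Derl2* to *Derl1* differed by -0.0247 without affected 3 (adjusted p = 0.815). Neither had been called. Of 860 results of single genes and pairs under an alternative, 771 kept their direction and side of the threshold, 74 lost the call and 13 gained one, and the causes were not tested. *Sel1l*, *Derl1*, *Derl3* and *Herpud1* were called under every alternative. No paired analysis was possible because the groups share no replicate numbers. With 5 affected mice, smaller differences such as that of *Edem3* could not be separated from the spread between mice.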
